A study of Homo sapiens with 4 samples.

Results

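The MYC, MAX and MXD network is a set of transcription factors that share a basic helix-loop-helix leucine zipper and bind DNA as dimers. MYC, MYCN and MYCL activate genes as partners of MAX, mainly at the E-box CACGTG. MXD1, MXD3, MXD4, MXI1 and MNT compete for MAX and for the same sites, and repress by recruiting SIN3 and histone deacetylases. MLX is a MAX-like partner of MLXIP (MondoA) and MLXIPL (ChREBP), which sense glucose, and it also pairs with some MXD proteins and MNT. MYC transcription lies downstream of many growth signals, and in pancreatic cancer it is known for its role in growth after RAS activation. The members were taken as the rows of the deposited table whose platform annotation gives one of 10 gene symbols. Of the 10 genes, 9 had a row, each with 1 transcript cluster (a probe set that summarises one locus), among 21448 transcript clusters in all. MXD4 was not analysed here.

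Bulk RNA of SUIT2 cells was measured after 24 h with fb-PMT at 30 µM (2 arrays) and after 24 h with phosphate-buffered saline as the untreated control (2 arrays). All 4 arrays were of 1 cell line grown in RPMI medium with serum. The SUIT-2 line is generally described as pancreatic ductal adenocarcinoma, while the labels describe a glioblastoma. fb-PMT is a polymer-linked derivative of the thyroid hormone analog tetrac, aimed at the hormone site on integrin αvβ3. Nothing says that replicates were separate cultures, so the tests measure the spread between these arrays only, which may be technical.

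Values are log2 RMA summaries, and a value counts as above the negative controls when it exceeds the 95th percentile of the 612 negative control probe sets of its array. Of 5 epithelial markers, 4 (KRT8, KRT18, KRT19 and EPCAM) were above the negative controls on all 4 arrays and CDH1 on none. All 4 glial and neural markers (GFAP, OLIG2, S100B and PTPRZ1) were below them on every array. The summed epithelial signal (log2) was 17.56 to 17.59 with fb-PMT and 17.75 to 17.76 in controls, without overlap. Its markers went both ways. The log2 differences, fb-PMT minus control, were -0.29 for KRT8, -0.46 for KRT18 and -0.19 for KRT19, but 0.35 for EPCAM and 0.10 for CDH1. Of the fibroblast and leukocyte markers, COL1A2 and LYZ were above the negative controls, 1 of 3 in each list. The summed leukocyte signal, nearly all of it from LYZ, was 11.54 to 11.62 with fb-PMT and 11.07 to 11.49 in controls. Of its markers LYZ was higher (0.31), while PTPRC (-0.38) and CD3E (-0.37), below the negative controls, were lower. The summed fibroblast signal, mostly from COL1A2, was 8.17 to 8.31 with fb-PMT and 8.07 to 8.49 in controls. The part of these shifts in the results below was not tested. In bulk RNA a smaller share of cells with a transcript and less of it per cell cannot be told apart.

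None of the 9 members passed the test. In limma's moderated test over all transcript clusters, with Benjamini-Hochberg adjustment and a threshold of 0.05, the background rate was 0.0979% higher (21 transcript clusters) and 0% lower. With an intensity trend in limma's variance, 0 of the 9 were called, against 1.88% of all transcript clusters. At an unadjusted p under 0.05, 0 of the 9 members were called against 11.2% of all transcript clusters. Groups did not overlap for 5 of 9 members, MYCN and MXI1 higher and MYC, MNT and MLX lower with fb-PMT, against 42.6% of all transcript clusters. The largest difference among the members above the negative controls was that of MYC, 1.26-fold lower. The plot of the members by array shows their values, and the plot of differences their intervals.

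**Figure D1:**
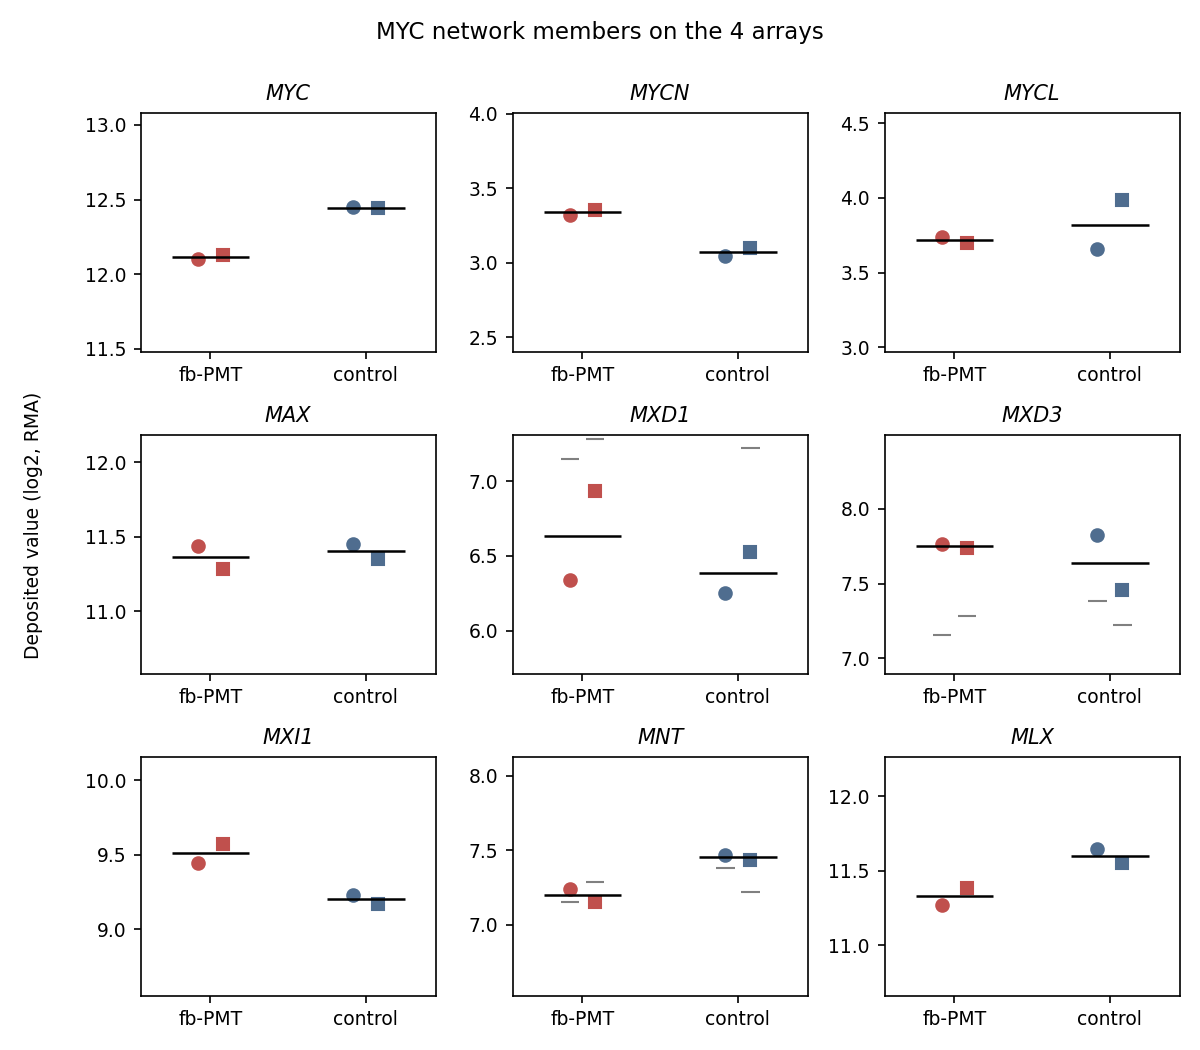
Deposited log2 values of the 9 measured network genes on the 2 fb-PMT arrays (red, left) and the 2 control arrays (blue, right). Circles are replicate 1 and squares replicate 2, black lines are group means, short grey lines are the 95th percentile of the negative controls of that array where it lies inside the panel, and every panel spans 1.6 log2 units around its own mean. MYC, MNT and MLX lay lower and MXI1 higher on both fb-PMT arrays, and in MAX, MYCL, MXD1 and MXD3 the groups overlapped.

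MYC, the most broadly expressed activator of the family, had log2 values of 12.10 and 12.13 on the fb-PMT arrays, against 12.45 and 12.44 on the control arrays. Both fb-PMT arrays lay below both controls, and the gap of 0.31 between the groups was wider than the distance of replicates, 0.028 with fb-PMT and 0.0055 in controls. The log2 difference was -0.33 (SE 0.14, 95% interval -0.68 to 0.029), and limma's adjusted p was 0.48. As a ratio to controls, the interval ran from 0.622 to 1.02. With the intensity trend limma's unadjusted p for MYC was 0.00743 and its adjusted p 0.167. The log2 difference of MYC was between -0.34 and -0.31 when any 1 array was left out. Where groups do not overlap, leaving out 1 array cannot change the sign. Without the trend, 13.6% of all transcript clusters had an unadjusted p as small as that of MYC or smaller.

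The other activators gave no signal above background. MYCN, known from neuroblastoma and neural progenitors, had 3.32 and 3.35 on the fb-PMT arrays, against 3.05 and 3.10 on the controls. MYCL, first found amplified in small cell lung cancer, had 3.74 and 3.70 with fb-PMT, against 3.66 and 3.98 in controls. Both genes were under the 95th percentile of the negative controls on all 4 arrays, so no fold is given, and limma's adjusted p was 0.557 for MYCN and 0.873 for MYCL. Without control replicate 2 the MYCL difference changed sign, from -0.10 to 0.064.

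MAX, the partner that the activators and the repressors need to bind DNA, had 11.44 and 11.28 on the fb-PMT arrays, against 11.45 and 11.35 on the controls. Its groups overlapped, with a log2 difference of -0.04 (SE 0.15, 95% interval -0.42 to 0.34). limma's adjusted p was 0.95. The interval of the ratio to controls, 0.746 to 1.27, leaves room for a change of that size in either direction. The difference was 0.011 without control replicate 1 and 0.039 without fb-PMT replicate 2.

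Among the repressors, MXI1 had the largest difference above the negative controls. MXI1, an MXD family protein that antagonises MYC, had 9.44 and 9.57 with fb-PMT, against 9.23 and 9.17 in controls. Both fb-PMT arrays lay above both controls, by a gap of 0.21. The log2 difference was 0.31 (SE 0.15, 95% interval -0.065 to 0.68), which is 1.24-fold higher, and limma's adjusted p was 0.52. It was between 0.24 and 0.37 when 1 array was left out, which cannot change the sign of groups without overlap. MXI1 and MYC therefore had measured differences of opposite sign and similar size, neither past the test.

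MXD1, an MXD protein that appears as cells differentiate, had 6.34 and 6.93 with fb-PMT, against 6.25 and 6.52 in controls. It lay below the negative controls on every array, and its groups overlapped (limma's adjusted p = 0.749). Its fb-PMT replicates stood 0.60 apart, wider than those of any other member, and without fb-PMT replicate 2 the difference of 0.25 became -0.051. MXD3, the MXD protein known from proliferating cells, had 7.76 and 7.74 with fb-PMT, against 7.83 and 7.45 in controls. Its groups overlapped, and its difference of 0.11 (SE 0.18, limma's adjusted p = 0.861) became -0.074 without control replicate 2.

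MNT, a broadly expressed repressor that limits MYC, had 7.24 and 7.16 on the fb-PMT arrays, against 7.47 and 7.44 on the controls. Both fb-PMT arrays lay below both controls, yet the values were close to background: fb-PMT replicate 1 was 0.089 above the negative controls of its array and fb-PMT replicate 2 stood at -0.13 relative to them. The log2 difference was -0.25 (SE 0.15, 95% interval -0.62 to 0.11), with an adjusted p of 0.575 in limma. The difference ran from -0.30 to -0.21 when 1 array was left out, again with no change of sign possible.

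MLX had 11.27 and 11.39 on the fb-PMT arrays, against 11.65 and 11.55 on the controls. Both fb-PMT arrays lay below both controls by a gap of 0.16, wider than the distance between replicates of 0.12 with fb-PMT and 0.096 in controls. The log2 difference was -0.27 (SE 0.15, 95% interval -0.64 to 0.10), which is 1.21-fold lower, and limma's adjusted p was 0.562. Among the proteins outside the 10 members, MGA, a MAX partner with an additional T-box DNA-binding domain, was at -0.11 (0.029 without fb-PMT replicate 2) with overlapping groups. MLXIP and MLXIPL, the glucose-sensing partners of MLX, stayed below the negative controls on every array. limma's adjusted p was 0.812 to 0.857 for these 3 genes.

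**Figure D2:**
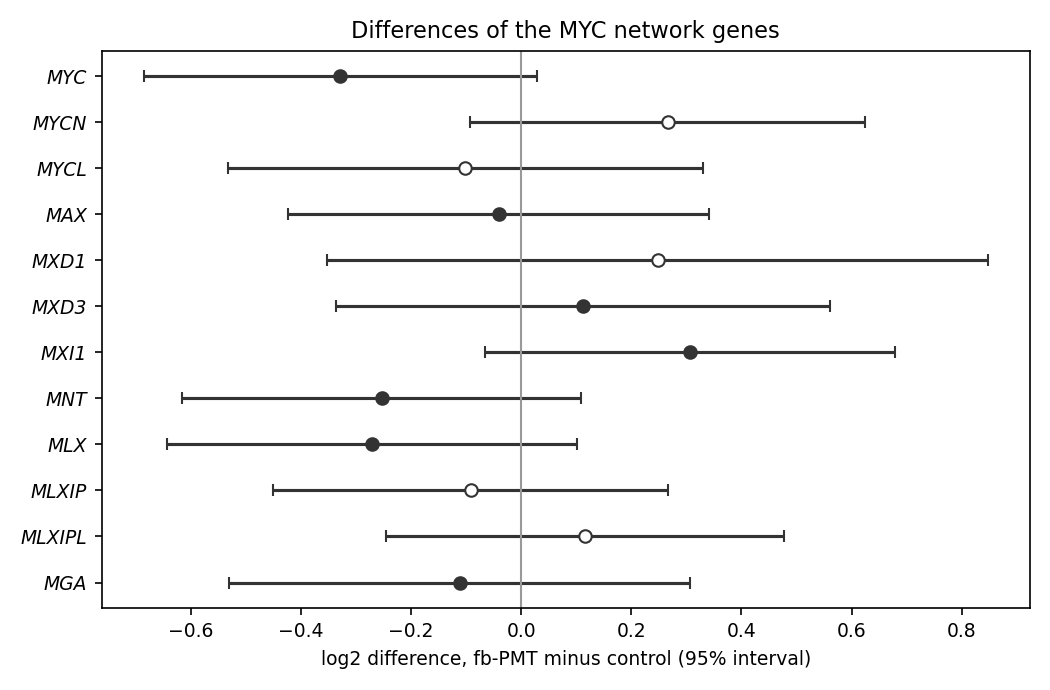
log2 difference, fb-PMT minus control, of the 9 measured members and of MLXIP, MLXIPL and MGA, with limma's 95% interval (no intensity trend, no filter). Open points are genes below the negative controls on all 4 arrays. All 12 intervals include 0, and that of MYC reaches from -0.68 to 0.029.

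The genes whose 4 values, centred on their own mean, lay closest to those of MYC were S100A11 (Euclidean distance 0.021), ABHD2 (0.021) and IFT56 (0.022), out of 7645 transcript clusters with a symbol that were above the negative controls on all 4 arrays. Their log2 differences were -0.35, -0.34 and -0.34. The hundredth closest lay at 0.094, so many genes share this pattern over 4 arrays.

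The promoters of MNT and MLX are printed because both genes measured lower and both windows hold the E-box through which the network acts. The windows run from 250 bases before to 50 after a RefSeq transcript start (GRCh38.p14), and the capitals mark CACGTG, which reads the same on both strands. Of 9 member genes with a window (all but MYC, which was not searched), 3 (MNT, MLX and MXD4) hold CACGTG, against 8.77% of 27305 genes. MNT is shown from chr17:2401011-2401310 on the minus strand, with the E-box beginning at -193, and MLX from chr17:42566850-42567149 on the plus strand, with the E-box beginning at -50.
MNT: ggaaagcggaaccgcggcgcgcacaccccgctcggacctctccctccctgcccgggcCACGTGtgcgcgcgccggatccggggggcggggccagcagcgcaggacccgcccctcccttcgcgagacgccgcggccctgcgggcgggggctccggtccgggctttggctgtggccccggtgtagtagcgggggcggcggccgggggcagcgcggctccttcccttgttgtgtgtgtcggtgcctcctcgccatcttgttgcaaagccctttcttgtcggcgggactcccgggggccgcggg
MLX: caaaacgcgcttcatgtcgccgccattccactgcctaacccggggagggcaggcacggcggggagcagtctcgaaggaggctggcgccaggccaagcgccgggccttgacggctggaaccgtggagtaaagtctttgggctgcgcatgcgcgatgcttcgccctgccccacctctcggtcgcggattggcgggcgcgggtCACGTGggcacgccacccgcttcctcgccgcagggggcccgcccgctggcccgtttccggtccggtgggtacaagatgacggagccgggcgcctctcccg
MXI1, which measured higher, has 3 windows and none holds CACGTG. Of the 6 measured members with a window and no CACGTG, 2 were lower, MAX and MYCL, with overlapping groups. A relation between the E-box and the direction of the members was not tested. A match of letters is a description and does not show binding.

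The genes that work with the network or are under it were described from 7 lists with 168 genes, of which 140 were measured. No member of any list passed limma's test over all transcript clusters. Over all transcript clusters the median log2 difference was -0.017, and 52.7% were lower with fb-PMT. The plot of the lists shows the measured genes of 6 lists, and MLXIP, MLXIPL and MGA, the remaining list, are in the plot of differences.

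**Figure D3:**
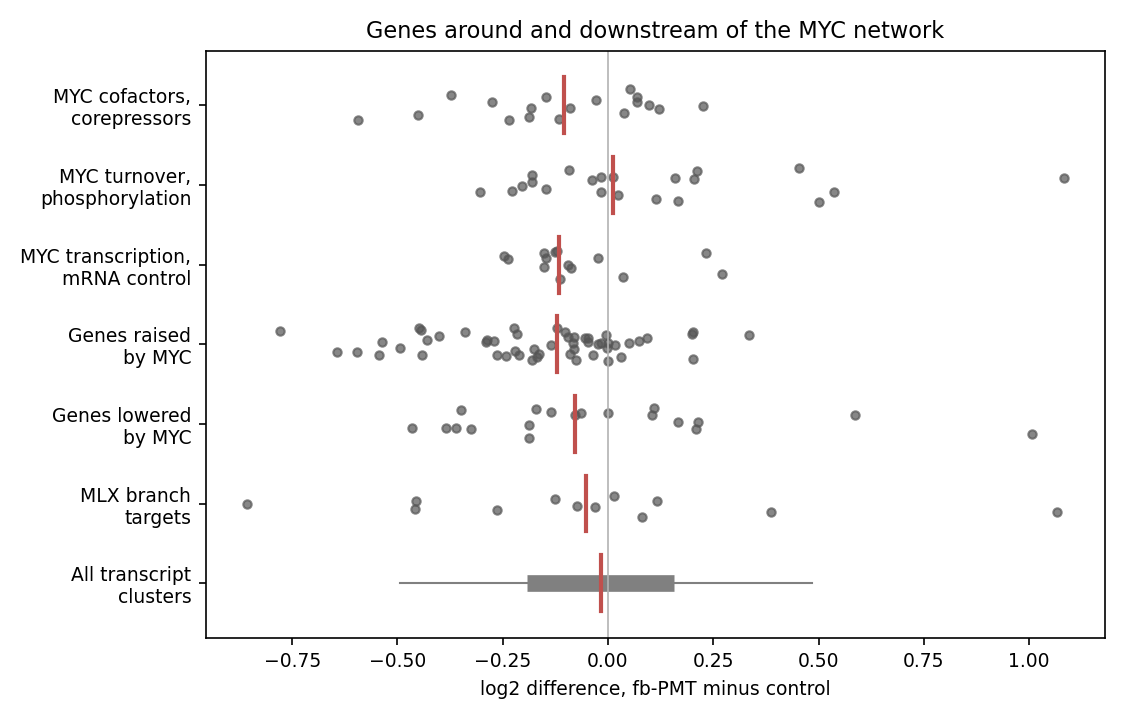
log2 difference, fb-PMT minus control, of each measured gene of 6 lists (points, scattered vertically for legibility) with the list median (red). The bottom row gives all 21448 transcript clusters as median, quartiles (bar) and the 5th to 95th percentile (line, -0.49 to 0.48). Genes raised by MYC lie mostly left of 0 with a median of -0.12, and PIM1, HBP1 and PFKFB3 are the points near 1 on the right.

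Of the genes that MYC is known to raise, 53 of 65 were measured, and 43 were lower and 10 higher with fb-PMT. Their median log2 difference was -0.12, and the 4 ways of setting 1 fb-PMT array against 1 control gave medians of -0.16 to -0.12. Groups did not overlap with fb-PMT lower for 27 of them (50.9%), against 22.3% of all transcript clusters, and with fb-PMT higher for 3 (5.66%), against 20.2%. In limma's test 0 passed, and 9 were lower and 0 higher at an unadjusted p under 0.05, against a background of 5.49% lower and 5.7% higher. With an intensity trend in limma's variance, 2 were called, WDR74 and NCL, both lower, against a background of 0.513% lower and 1.37% higher. A lower level of ribosome biogenesis genes, NCL among them, was known from these arrays when the list was written, so its direction is not independent evidence.

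Split by role after the values were seen, each part of that list had more genes lower than higher. Over all transcript clusters 52.7% were lower, with a median of -0.017. The parts other than ribosome assembly hold few genes. Of 23 measured genes for ribosome assembly and the nucleolus, 19 were lower, with a median of -0.22. Of 6 mitochondrial proteins 6 were lower (median -0.16), of 10 genes of nucleotide, polyamine, folate, iron and energy metabolism 7 were lower (median -0.078), and of 9 genes of the cell cycle, DNA and chromatin 7 were lower (median -0.047). The remaining 5 had 4 lower, with a median of -0.076.

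WDR74, which acts in assembly of the large ribosomal subunit, had log2 values of 10.90 and 11.05 with fb-PMT, against 11.51 and 11.73 in controls. Its log2 difference was -0.64 (SE 0.16), with an adjusted p of 0.31 in limma and 0.0295 with the intensity trend. NCL, which encodes the nucleolar protein nucleolin, had 14.13 and 14.01 with fb-PMT, against 14.45 and 14.68 in controls. Its log2 difference was -0.49 (SE 0.16), and limma's adjusted p was 0.39 without and 0.0298 with the trend. GRWD1, a histone-binding protein that also takes part in ribosome assembly, had 10.73 and 10.60 with fb-PMT, against 11.13 and 11.38 in controls (log2 difference -0.60, SE 0.17, limma's adjusted p = 0.346). In all 3 genes both fb-PMT arrays lay below both controls, but WDR74 and GRWD1 were picked by their small p.

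The other genes of the list with an unadjusted p under 0.05 in limma, named after their values were seen, were CCND2, CAD, NDUFAF4, BYSL, NOLC1 and SRM. CAD, the enzyme that opens pyrimidine synthesis, was at -0.54, NDUFAF4, an assembly factor of respiratory complex I, at -0.54, and SRM, which makes spermidine, at -0.40. CCND2, cyclin D2, was below the negative controls on all 4 arrays. Not every well-known target measured lower: SLC29A2, a nucleoside transporter, was at 0.34 and LAS1L, a pre-rRNA processing factor, at 0.20 (limma's adjusted p = 0.511 and 0.664). CDK4, a kinase of the G1 phase, had 15.56 and 15.54 with fb-PMT, against 15.62 and 15.58 in controls, with a difference of -0.047 (limma's adjusted p = 0.936).

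The E-box was common in front of these genes. Of the 65 genes in the list, 53 have a promoter window, and 30 of these (56.6%) hold CACGTG, against 8.77% of all genes. The list is of known MYC targets and MYC acts mainly at CACGTG, so this share is no result of these arrays. Some windows overlap, as those of the neighbours HSPD1 and HSPE1 and of PAICS and PPAT do. The CDK4 window is printed because it holds 3 E-boxes (capitals) in a gene whose difference was only -0.047 (GRCh38.p14, chr12:57752261-57752560, minus strand).
CDK4: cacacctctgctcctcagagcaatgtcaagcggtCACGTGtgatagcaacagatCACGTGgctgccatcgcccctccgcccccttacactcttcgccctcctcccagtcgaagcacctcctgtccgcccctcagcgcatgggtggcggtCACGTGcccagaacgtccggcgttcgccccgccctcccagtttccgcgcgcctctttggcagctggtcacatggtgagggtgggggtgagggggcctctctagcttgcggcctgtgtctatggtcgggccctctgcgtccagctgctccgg
Among measured list genes, 21 of 25 with CACGTG were lower (84.0%, median -0.09) and 15 of 19 without it (78.9%, median -0.14). Over all genes with a window, 52.6% of 1540 transcript clusters with CACGTG and 52.1% of 12727 without it were lower, with medians of -0.016 and -0.014.

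Of the genes that MYC is known to lower, 19 of 24 were measured, 8 higher and 11 lower, with a median of -0.078. Of these, 10 stayed below the negative controls on every array. Groups did not overlap with fb-PMT lower for 8 of the 19 (42.1%), against 22.3% of all transcript clusters. With fb-PMT higher, groups did not overlap for 4 (21.1%), against 20.2%. Only the share without overlap thus leaned to lower genes. With or without overlap, 57.9% of the list were lower, near the 52.7% of all transcript clusters. Among the genes raised by MYC this share was 81.1%. Some genes without overlap never exceeded the negative controls: GADD45G, GAS1, CDKN2B and TSC22D3 among the lower ones and KLF4 among the higher ones. In limma's test 0 passed, with 2 higher (10.5%) and 1 lower (5.26%) at an unadjusted p under 0.05, against 5.7% higher and 5.49% lower over all transcript clusters. HBP1, a high-mobility-group repressor of cell cycle genes, had 11.37 and 11.28 with fb-PMT, against 10.34 and 10.29 in controls. Both fb-PMT arrays lay above both controls, and the log2 difference was 1.01 (SE 0.15), which is 2.01-fold higher. limma's adjusted p was 0.123, and it was 0.0016 with the intensity trend. CDKN1B, the cyclin-dependent kinase inhibitor p27, had 10.95 and 11.44 with fb-PMT, against 10.54 and 10.67 in controls (log2 difference 0.59, SE 0.21, limma's adjusted p = 0.408). CDKN1A, the inhibitor p21, had 7.87 and 8.07 with fb-PMT, against 7.93 and 8.36 in controls. Its groups overlapped, and its difference of -0.17 became 0.044 without control replicate 2. THBS1, the antiangiogenic thrombospondin 1, was at -0.39 and GADD45A, a stress-induced growth arrest gene, at -0.36, with adjusted p of 0.446 and 0.503 in limma.

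Among genes that set MYC protein stability, 21 of 23 were measured, 11 higher and 10 lower, with a median of 0.012. In limma's test 0 passed, and 3 were higher (14.3%) and 0 lower at an unadjusted p under 0.05, against 5.7% higher and 5.49% lower over all transcript clusters. PIM1, a kinase known to phosphorylate and stabilise MYC, had 11.29 and 11.49 with fb-PMT, against 10.30 and 10.32 in controls. The log2 difference was 1.08 (SE 0.16, 95% interval 0.70 to 1.47), which is 2.12-fold higher, with an adjusted p of 0.123 in limma and 0.00133 with the intensity trend. PPP2R5A, the phosphatase 2A subunit that directs the enzyme to MYC, had 9.83 and 9.99 with fb-PMT, against 9.35 and 9.40 in controls (log2 difference 0.54, SE 0.15, limma's adjusted p = 0.349). PIM1 and PPP2R5A both measured higher without overlap, but they were picked by their small p. PIM1 is known to stabilise MYC and PPP2R5A to favour its breakdown. Over the list, groups did not overlap with fb-PMT higher for 33.3% and lower for 23.8%. Over all transcript clusters these shares were 20.2% and 22.3%. BTRC, a ubiquitin ligase subunit, was at -0.30 and SET, an inhibitor of phosphatase 2A, at -0.23, with adjusted p of 0.598 and 0.607 in limma. The third gene with an unadjusted p under 0.05, FBXO32 (named after its value was seen), was below the negative controls on all 4 arrays.

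Among cofactors of MYC and corepressors of MXD and MNT, 18 of 22 were measured, 7 higher and 11 lower, with a median of -0.10. In limma's test 0 passed, and 2 were lower (11.1%) and 0 higher at an unadjusted p under 0.05, against 5.7% higher and 5.49% lower over all transcript clusters. KAT2A, the histone acetyltransferase GCN5, had 9.56 and 9.37 with fb-PMT, against 10.01 and 10.11 in controls (log2 difference -0.59, SE 0.16, limma's adjusted p = 0.322). WDR5, a chromatin protein that helps MYC bind its targets, had 10.92 and 11.20 with fb-PMT, against 11.63 and 11.39 in controls (log2 difference -0.45, SE 0.18, limma's adjusted p = 0.446). Both genes lay lower on both fb-PMT arrays, but they were picked by their small p. Over the list, groups did not overlap with fb-PMT lower for 38.9% and higher for 11.1%. Over all transcript clusters these shares were 22.3% and 20.2%. The deacetylases HDAC3 and HDAC1 were at 0.12 and 0.098, with adjusted p of 0.817 and 0.853 in limma.

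Among factors that control MYC transcription or its mRNA, 14 of 19 were measured, 3 higher and 11 lower, with a median of -0.12. In limma's test 0 passed, and 0 had an unadjusted p under 0.05, against 11.2% of all transcript clusters. The transcription factor E2F1 was at 0.27 and CTNNB1, which encodes β-catenin, at 0.23. TCF7L2, the β-catenin partner that binds the MYC locus, was at -0.24 and CTCF, the chromatin insulator protein, at -0.15. limma's adjusted p was 0.596 to 0.756 for these 4 genes. None of them had overlapping groups, but they were picked by their small p. Over the whole list groups did not overlap for 50% of the genes, near the 42.6% of all transcript clusters.

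Of the targets of the MLX branch, 12 of 12 were measured, 5 higher and 7 lower, with a median of -0.053. In limma's test 0 passed, with 1 higher and 1 lower (8.33% each) at an unadjusted p under 0.05, close to the 5.7% higher and 5.49% lower over all transcript clusters. PFKFB3, which makes a strong activator of glycolysis, had 10.93 and 11.01 with fb-PMT, against 9.84 and 9.95 in controls. The log2 difference was 1.07 (SE 0.15), which is 2.1-fold higher, with an adjusted p of 0.115 in limma and 0.00166 with the intensity trend. TXNIP, an inhibitor of glucose uptake and the best-known target of MLXIP with MLX, had 9.27 and 9.65 with fb-PMT, against 9.18 and 8.96 in controls (log2 difference 0.39, SE 0.19, limma's adjusted p = 0.526). ARRDC4, a relative of TXNIP under the same control, was below the negative controls on all 4 arrays, at 3.83 and 4.54 with fb-PMT and 4.81 and 5.28 in controls. FASN and ACACA, enzymes of fatty acid synthesis, were at -0.26 and -0.13, with adjusted p of 0.57 and 0.80 in limma. The targets above the negative controls therefore measured in both directions.

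The windows of PFKFB3 and TXNIP are printed to show the kinds of site through which MLX dimers are known to act. PFKFB3 has a CACGTG in one window (capitals, beginning at -108, GRCh38.p14, chr10:6202682-6202981, plus strand). TXNIP has no CACGTG there but holds a pair of E-box-like sites, searched as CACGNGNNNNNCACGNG on both strands (capitals, GRCh38.p14, chr1:145996530-145996829, minus strand). That pair, which would also match a pair of CACGTG sites, was found in 20 of 35116 windows.
PFKFB3: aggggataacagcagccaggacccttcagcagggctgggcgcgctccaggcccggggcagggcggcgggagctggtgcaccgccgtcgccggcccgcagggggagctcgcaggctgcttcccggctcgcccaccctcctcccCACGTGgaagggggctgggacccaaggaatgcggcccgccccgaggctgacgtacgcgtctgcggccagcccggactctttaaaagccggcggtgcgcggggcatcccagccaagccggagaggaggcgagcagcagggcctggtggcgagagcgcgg
TXNIP: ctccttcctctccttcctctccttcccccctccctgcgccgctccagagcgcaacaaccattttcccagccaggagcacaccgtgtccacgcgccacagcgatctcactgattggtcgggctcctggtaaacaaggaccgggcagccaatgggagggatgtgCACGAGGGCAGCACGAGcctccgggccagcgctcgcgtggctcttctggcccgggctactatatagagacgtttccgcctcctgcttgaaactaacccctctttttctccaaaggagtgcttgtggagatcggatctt

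**Figure D4:**
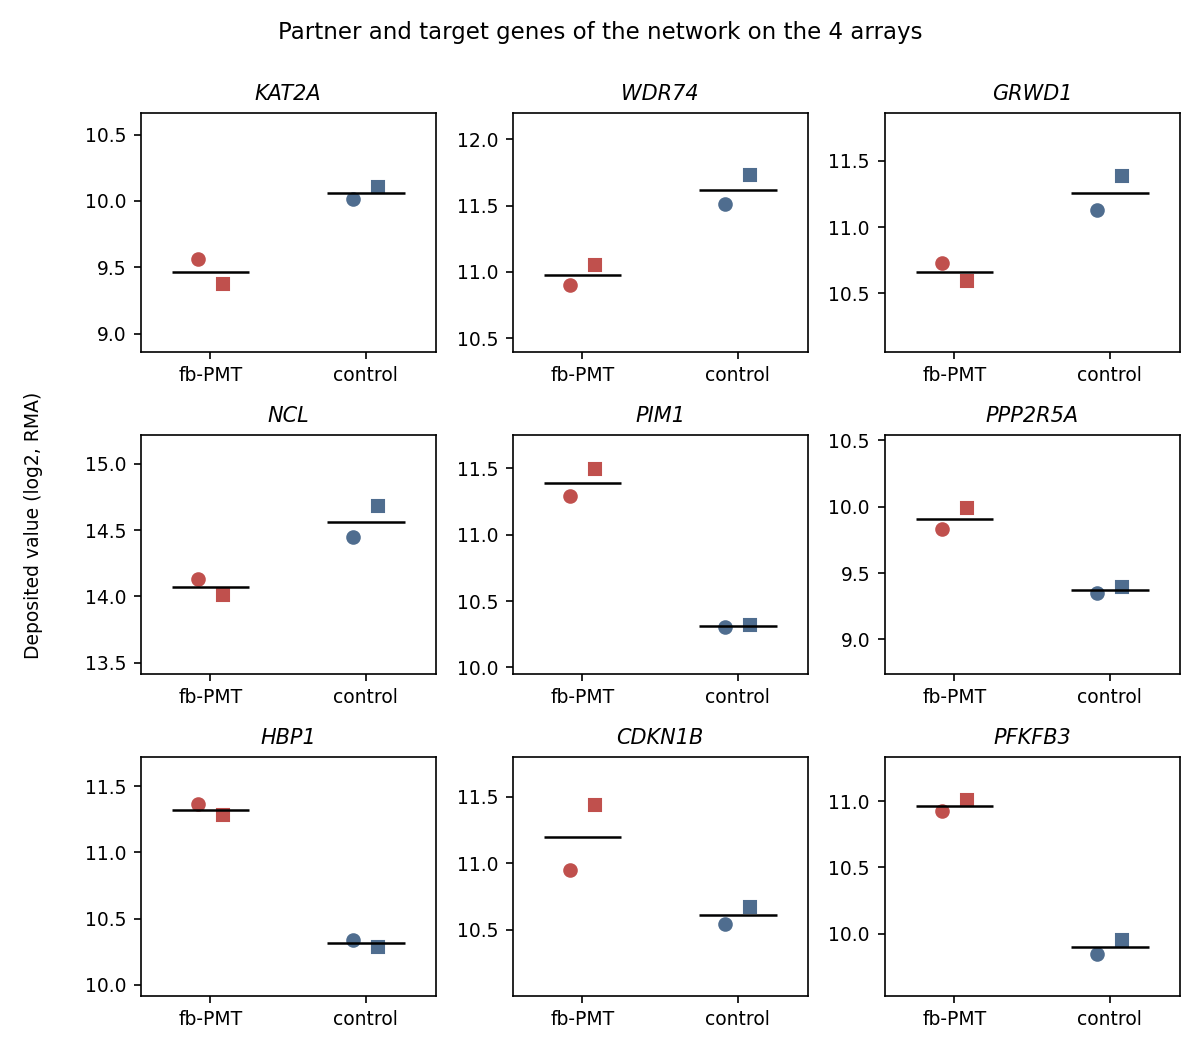
Deposited log2 values of 9 partner and target genes on the 2 fb-PMT arrays (red, left) and the 2 control arrays (blue, right), with group means as black lines and a span of 1.8 log2 units per panel. Circles are replicate 1 and squares replicate 2. PIM1, PPP2R5A, HBP1, CDKN1B and PFKFB3 lay higher and KAT2A, WDR74, GRWD1 and NCL lower on both fb-PMT arrays.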

How the data were processed

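Per the submitters' processing notes, the authors ran RMA (Transcriptome Analysis Console, version 4.0.1.36), and the deposited table holds its log2 summaries. Which RMA variant and which build the array annotation follows is not given in the sources used here. Scanner files were not used. RMA between-array normalization removes a shift shared by most genes. The 2903 control rows were left out of 24351, and 21448 transcript clusters were tested, 17709 with 1 gene symbol, 0 with several and 3739 with none. The background is the 95th percentile of 612 negative control rows per array (7.15 and 7.29 with fb-PMT, 7.38 and 7.22 in controls). No fold is given for a gene under it, but log2 differences of some such genes are printed or plotted.

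limma 3.58.1 in R 4.3.3 (lmFit, eBayes without an intensity trend, no covariate) gave fb-PMT minus control, two-sided, with 2 residual and 3.72 prior degrees of freedom. The number of arrays limits the precision: the median standard error was 0.175. The fit was tested on simulated data. Members and lists were chosen with earlier results of these data known. Named genes are the members, MLXIP, MLXIPL and MGA, per list the 2 rises and 2 falls with the smallest p above background, and CDK4, NCL, CDKN1A, TXNIP, ARRDC4 and PFKFB3 (ODC1 was not analysed here). Others were named after their values were seen. Alternatives were a replicate block, other variance models, filters, normalizations, array weights, thresholds and each array left out. Promoter sequences are from RefSeq.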

Additional observations from a re-analysis of the deposited data

How the results depend on the processing

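The number of network members called was 0 under all 17 alternatives. Of 130 alternative values of the 9 members, 125 kept their sign and their side of the threshold and 5 changed sign, all with 1 array left out: MYCL (-0.27 to 0.064), MAX (-0.12 to 0.039, with 0.011 without control replicate 1), MXD1 (-0.051 to 0.55) and MXD3 (-0.074 to 0.30). MYCN, MYCL and MXD1 did not enter the fit with the filter on negative controls, nor MYCN and MYCL that without the lowest 30%. Over the alternatives limma's adjusted p for MYC was 0.167 to 0.77. Of 462 values of the other named genes, 2 changed sign, CDKN1A (-0.39 to 0.044) and MGA (-0.25 to 0.029), also with 1 array left out. For members and named genes, a sign could change only with another normalization or an array left out. The other alternatives left each log2 difference as it was and could change only its p, so most signs were kept by construction.

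The whole-table count of 21 higher and 0 lower became 293 and 110 with an intensity trend, 286 and 108 with robust variances added, 61 and 6 without the lowest 30%, 216 and 73 with the filter on negative controls, 42 and 2 with only named transcript clusters, 65 and 8 at an adjusted p under 0.1, and 1222 and 1177 at an unadjusted p under 0.05. With 1 array left out it was 1 to 9 higher and 0 lower. With the replicate number as a block it was 1 higher, and 6 with crossed numbers, an alternative added after the data were seen. The correlation of the deviations of fb-PMT replicate 1 and control replicate 1 from their group means was 0.042 over transcript clusters. With 2 arrays a group the pair of replicate 2 mirrors it and adds nothing. The numbers were not taken as pairs, and the block called 0 members.

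In the lists, the trend with and without robust variances called 1 gene each of MYC turnover (PIM1), genes lowered by MYC (HBP1) and MLX targets (PFKFB3), all higher, and 2 of the genes raised by MYC, both lower. The filter on negative controls called PIM1, HBP1 and PFKFB3, 1 in each of those lists. At an unadjusted p under 0.05 the lists had 2 of 18 cofactors, 3 of 21 turnover genes, 9 of 53 genes raised by MYC, 3 of 19 lowered by MYC and 2 of 12 MLX targets, against 11.2% of all transcript clusters. The 95% intervals of all 9 members include 0 without an intensity trend and without a filter. The unadjusted p in limma's test was under 0.05 for MYC with the trend (0.00743, and 0.00816 with robust variances), the filter on negative controls (0.0247), the lowest 30% left out (0.0469) and renewed quantile normalization (0.0462), for MLX with the trend (0.0387, and 0.0418 with robust variances) and for MXI1 with the filter on negative controls (0.0396), with adjusted p from 0.167 to 0.447.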
